A study of Mus musculus with 13 samples.

Results

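The dendritic cell genes described here were Xcr1, Clec9a, Batf3, Irf8, Flt3, Zbtb46, Itgax, Cd209a, Siglech and Ccr7. They were chosen by name as genes used to mark dendritic cells, under a rule that names no measured value, with earlier results of these data known. All 10 were found by symbol among the 22048 genes of the count table, and all 10 passed the filter on low counts that kept 13831 genes for testing. The study measured mRNA of whole mouse liver in 13 libraries, and its title concerns hepatic stellate cells, neurotrophin-3 and hepatocyte proliferation. Stellate cells store vitamin A and lie along the sinusoids of the liver. The 6 control livers (3 male, 3 female) kept their stellate cells, the 4 depleted livers (1 male, 3 female) came from stellate cell depletion, and the 3 hepatectomised livers (2 male, 1 female) kept their stellate cells and were taken 72 h after partial hepatectomy, in which part of the organ is cut away. How the stellate cells were depleted, and the strain and age of the mice, are not given in the sources used here.

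Dendritic cells take up antigen in tissues, carry it to lymph nodes and present it to T cells. Conventional dendritic cells of type 1 present antigen from dead cells to CD8 T cells, those of type 2 mainly serve CD4 T cells, and plasmacytoid dendritic cells are known for their production of type I interferon. In the liver they are a small population that lies mostly around the portal tracts, so their genes are read here against a background of hepatocyte mRNA.

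Of the 10 genes, 7 rose in depleted livers against controls. These were the type 1 genes Xcr1, Clec9a, Batf3 and Irf8, the growth factor receptor Flt3, the integrin Itgax and the migration receptor Ccr7, with fold changes from 7.99 for Flt3 to 17.6 for Xcr1. Siglech, the marker of plasmacytoid cells, fell by 2.63 on the log2 scale, and Cd209a and Zbtb46 did not pass the test. Among all genes tested, 18.9% were called higher and 15.0% lower in depleted livers. At 72 h after hepatectomy edgeR's quasi-likelihood test called none of the 10, and DESeq2 called 1, Xcr1, lower. In bulk tissue, more cells of a type and more RNA per cell cannot be told apart.

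**Figure D1:**
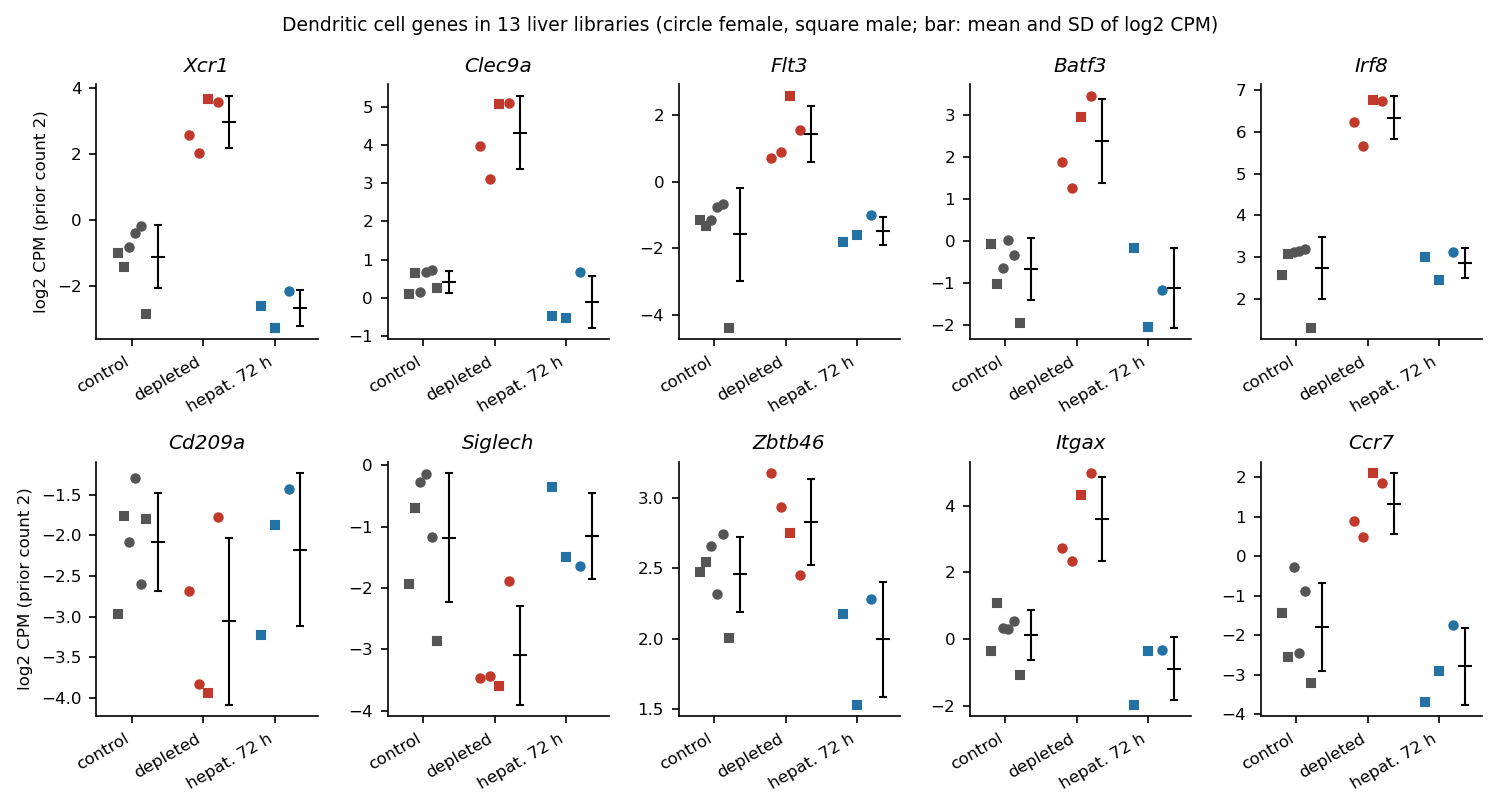
Log2 CPM (counts scaled to a common library size, prior count 2) of each of the 10 genes in each library, by group, with circles for female and squares for male libraries and bars for the group mean and SD. For 7 genes the 4 depleted libraries lie above the other 9, while Cd209a, Siglech and Zbtb46 overlap with the controls.

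Upstream sequences are shown for the pair with the largest rises, Xcr1 and Clec9a, and for Siglech and Cd209a, which did not rise, so that the start regions of genes called higher, called lower and not called can be compared. RefSeq windows (GRCm38.p6) were found for 9 of the 10 genes. Each line gives 180 bases before and 20 bases after the start site, 5′ to 3′ on the gene's own strand. Capitals mark matches on either strand to the motifs that were searched.
Xcr1, chr9:123862010-123862209, minus strand: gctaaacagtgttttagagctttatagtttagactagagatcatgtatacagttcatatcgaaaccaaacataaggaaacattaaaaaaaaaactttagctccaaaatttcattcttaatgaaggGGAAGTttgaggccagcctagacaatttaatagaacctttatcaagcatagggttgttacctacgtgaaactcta
Clec9a, chr6:129408682-129408881, plus strand: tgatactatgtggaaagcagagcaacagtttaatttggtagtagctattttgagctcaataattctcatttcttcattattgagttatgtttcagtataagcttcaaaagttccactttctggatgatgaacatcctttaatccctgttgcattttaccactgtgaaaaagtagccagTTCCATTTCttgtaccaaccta
Siglech, chr7:55768004-55768203, plus strand: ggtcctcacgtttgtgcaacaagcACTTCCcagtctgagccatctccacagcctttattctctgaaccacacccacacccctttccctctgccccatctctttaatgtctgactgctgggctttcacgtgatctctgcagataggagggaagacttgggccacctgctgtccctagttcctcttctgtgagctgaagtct
Cd209a, chr8:3748965-3749164, minus strand: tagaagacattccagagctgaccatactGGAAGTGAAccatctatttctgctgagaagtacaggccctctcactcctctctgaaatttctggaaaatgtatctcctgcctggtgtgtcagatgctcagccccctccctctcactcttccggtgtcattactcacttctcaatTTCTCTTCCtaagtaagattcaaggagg

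The motifs were searched in full windows of 300 bases, from 250 before to 50 after the start. They were GAAANNGAA, part of the interferon response element, GGAANNGAA, part of the composite element of ETS and IRF factors, TGANTCA, the AP-1 element to which BATF proteins bind with JUN partners, and GGAAGT, a core of ETS sites such as those of PU.1. GGAAGT can overlap GGAANNGAA, as in Cd209a. Of the 32851 mouse windows, 8.56% held GAAANNGAA, 8.24% GGAANNGAA, 7.81% TGANTCA and 23.8% GGAAGT. Clec9a held 1 match to GAAANNGAA beginning at position -2 from the start, and Cd209a held 2 matches to GGAANNGAA, at -152 and -8. Both the risen Xcr1 and the fallen Siglech held 1 match to GGAAGT, at -55 and -156. Among the genes not printed, Itgax had TGANTCA at -56 with GGAAGT at -121 and -41, and Zbtb46 had TGANTCA at -61 from an internal start, well downstream of the 5′ end of the gene in the count table. GGAAGT also matched in Flt3 at -75 and in Batf3 at -241 from a start that likewise lies inside the gene, and neither of the 2 windows of Irf8 held any of the 4 motifs. A match is a description of the letters and not a shown binding site.

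Library totals ran from 35360991 to 51008737 counts, at which 3 counts correspond to between 0.0588 and 0.0848 CPM when scaled to library size. CPM, counts scaled to a common library size, were corrected below with TMM factors. The 12 stellate cell genes checked, among them the retinol esterifying enzyme Lrat, were all lower in depleted livers by edgeR's quasi-likelihood test. Their summed level was 14.5, 14.9, 18.4 and 63.8 CPM in depleted replicates 1 to 4 and between 311 and 808 CPM in controls. Control replicate 6 stood apart from the other controls: the summed level of 10 pan-leukocyte genes was 135 CPM there and from 201 to 231 CPM in the other 5. Without it and depleted replicate 4, which held the most stellate cell RNA of its group, 7 of the 10 genes were called higher and 1 lower in depleted livers, as with all libraries. The labels call the libraries of a group replicates without saying that each came from its own animal, so p-values measure the spread between these samples, which may be technical. The labels give no batch or date.

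Xcr1 (ENSMUSG00000060509.4, chromosome 9, 123852315 to 123862029, minus strand, GRCm38) encodes the chemokine receptor that marks type 1 conventional dendritic cells. Its level in controls was lowest at 0.0900, with a median of 0.487 and a highest value of 0.842 CPM. The depleted replicates 1 to 4 held 6.0, 4.05, 12.8 and 11.8 CPM, and the hepatectomised replicates 1 to 3 held 0.118, 0.0561 and 0.175 CPM. Every depleted library was above every other library, and the lowest control was replicate 6, with 3 counts. Xcr1 rose by a log2 fold change of 4.14 ± 0.48 (SE) in depleted against control livers (edgeR's quasi-likelihood test, Benjamini-Hochberg adjusted p = 4.57e-05). Without depleted replicate 3, the male of that group, the log2 fold change was 3.41.

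Clec9a (ENSMUSG00000046080.15, chromosome 6, 129408862 to 129424764, plus strand) encodes the receptor by which these cells recognise actin exposed on dead cells. Control levels were 1.02, 1.32 and 1.61 CPM (lowest, median, highest). Depleted replicates 1 to 4 held 15.8, 8.65, 34.0 and 34.6 CPM, against 0.676, 0.646 and 1.55 CPM in hepatectomised replicates 1 to 3. The depleted libraries again did not overlap with any other, and replicates 3 and 4 were the high ones. Clec9a rose by 4.13 ± 0.40 on the log2 scale (adjusted p = 1.45e-05, edgeR). Its exons overlap those of the neighbouring Clec1b on the same strand over 184 bases, so some reads could belong to either gene. Clec1b, a Kupffer cell gene, rose by 1.99 ± 0.36. It was 1 of 6 among 10 Kupffer cell genes that rose, with Marco (4.73 ± 0.79) the highest, while Clec4f (-3.0 ± 1.26), Vsig4 (-0.88 ± 0.60) and Folr2 (-0.12 ± 0.52) were among the 4 that did not pass the test. Cd5l, the last of these 4, went the other way. It held 231 to 612 CPM in depleted livers against 20.9 to 185 CPM in controls.

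Batf3 (ENSMUSG00000026630.7, chromosome 1, 191097847 to 191108945, plus strand) and Irf8 (ENSMUSG00000041515.7, chromosome 8, 120736358 to 120756694, plus strand) encode the transcription factors required for type 1 cells, and Irf8 is also used by monocytes, B cells and plasmacytoid cells. Batf3 was at 0.210, 0.670 and 0.966 CPM (lowest, median, highest) in controls. It reached 3.66, 2.35, 7.75 and 10.9 CPM in depleted replicates 1 to 4 and 0.852, 0.196 and 0.399 CPM in the hepatectomised ones. Thus the lowest depleted library exceeded the highest control, and Batf3 rose by 3.24 ± 0.52 (adjusted p = 0.000473, edgeR). Irf8 was the most abundant of the 10 genes per kilobase of gene length in every group. Its control levels were 2.46, 8.56 and 9.08 CPM, and the low value was that of replicate 6. The depleted libraries held 74.5, 50.5, 107 and 105 CPM and the hepatectomised libraries 7.97, 5.47 and 8.70 CPM. Irf8 rose by 3.52 ± 0.33 (adjusted p = 1.34e-05, edgeR), with no overlap between depleted livers and the rest.

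Flt3 (ENSMUSG00000042817.15, chromosome 5, 147330741 to 147400489, minus strand) encodes the receptor for the growth factor on which dendritic cells depend, and haematopoietic progenitors carry it too. It was at 0 counts in control replicate 6, and the control median and highest level were 0.402 and 0.585 CPM. The depleted replicates held 1.61, 1.81, 5.90 and 2.90 CPM, and the hepatectomised replicates 0.235, 0.281 and 0.449 CPM. Flt3 rose by 3.0 ± 0.61 (adjusted p = 0.00227, edgeR). Without depleted replicate 3, which held the highest level, the log2 fold change was 2.07 (adjusted p = 0.0403). Of 8 tested progenitor markers, a list that includes Flt3 itself, 3 were called higher, Flt3 among them, and 5 did not pass the test. Gata2 rose by 1.37 ± 0.37, and Ms4a3 was called higher from 0 counts in each control, having passed the low-count filter through the depleted livers. Cd34 (0.75 ± 0.36), Kit (0.66 ± 0.48), Hlf (-0.43 ± 0.21) and Cebpe (-0.51 ± 0.39) did not pass. The summed level of the list had a median of 87.5 CPM in controls and 77.9 CPM in depleted livers. Hlf, at a mean of 68.0 CPM in controls and 50.8 CPM in depleted livers, made up most of this sum.

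Itgax (ENSMUSG00000030789.8, chromosome 7, 128129547 to 128150656, plus strand) encodes the integrin CD11c, which macrophages and NK cells can also carry. Control levels were 0.420, 1.20 and 2.05 CPM, and the depleted replicates held 6.66, 5.08, 20.1 and 31.5 CPM. Hepatectomised replicates held 0.206, 0.730 and 0.748 CPM. Itgax varied widely among the depleted livers, with the highest coefficient of variation of the 7 risen genes there (78.5%), but no depleted library overlapped with the controls. It rose by 3.74 ± 0.57 (adjusted p = 0.000373, edgeR), and by 3.14 without depleted replicate 4.

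Zbtb46 (ENSMUSG00000027583.11, chromosome 2, 181387762 to 181459426, minus strand) encodes a transcription factor of conventional dendritic cells that endothelial cells express as well. Its levels were 3.96, 5.65 and 6.67 CPM in controls and 9.0, 7.59, 6.67 and 5.44 CPM in depleted replicates 1 to 4. The hepatectomised libraries held 4.47, 2.84 and 4.81 CPM. The control and depleted ranges overlapped, and the difference of 0.32 ± 0.21 on the log2 scale did not pass the test (adjusted p = 0.256, edgeR). Per kilobase of gene length Zbtb46 came next after Irf8 in controls, and in depleted livers Clec9a, Itgax, Batf3, Xcr1 and Ccr7 stood between them.

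Cd209a (ENSMUSG00000031494.6, chromosome 8, 3743395 to 3748984, minus strand) encodes a C-type lectin of type 2 and monocyte-derived dendritic cells and belongs to a family of close copies, between which the counting could have shared reads. It was near the limit of detection, with 3 to 16 counts in controls. Its levels there were 0.0804, 0.214 and 0.360 CPM, against 0.107, 0.0224, 0.0175 and 0.245 CPM in depleted replicates 1 to 4. In hepatectomised replicates it was at 0.0588, 0.225 and 0.324 CPM. The ranges overlapped, and the log2 difference between depleted and control livers was -1.37 ± 0.72 (adjusted p = 0.164, edgeR). Without depleted replicate 4, the highest of its group at 11 counts, the log2 difference was -2.18 and passed the test (adjusted p = 0.0399). At 1 to 11 counts per depleted library, the depth limits what can be said of this gene.

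Siglech (ENSMUSG00000051504.16, chromosome 7, 55768178 to 55778925, plus strand) encodes a sialic acid-binding lectin of plasmacytoid dendritic cells that some macrophages also carry. In controls it was at 0.0900, 0.483 and 0.854 CPM, the low value being that of replicate 6. Depleted replicates 1 to 3 held 2 counts each, at 0.0428, 0.0448 and 0.0349 CPM, and replicate 4 held 10 counts, or 0.223 CPM. Hepatectomised replicates were at 0.735, 0.309 and 0.274 CPM. Depleted replicate 4 lay above the lowest control, so these ranges overlapped, while the depleted and hepatectomised ranges did not. The fall of 2.63 ± 0.72 on the log2 scale passed the test (adjusted p = 0.0130, edgeR). It did not pass without depleted replicate 3 (log2 fold change -2.43, adjusted p = 0.0581) and was -3.51 without depleted replicate 4. Depleted replicate 4 was also the depleted library with the highest stellate cell sum, and control replicate 6 the control with the lowest, and the part of this in the result was not tested.

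Ccr7 (ENSMUSG00000037944.8, chromosome 11, 99144196 to 99155077, minus strand) encodes the receptor that guides mature dendritic cells, and also T and B cells, towards lymph nodes. Its control levels were 0.0600, 0.228 and 0.779 CPM, and depleted replicates 1 to 4 held 1.80, 1.34, 4.23 and 3.54 CPM. Hepatectomised replicates held 0.0294, 0.0842 and 0.249 CPM, from 1 to 10 counts. All depleted libraries lay above all others. Ccr7 rose by 3.13 ± 0.62 (adjusted p = 0.00180, edgeR), and by 2.18 without depleted replicate 3. In the fit on female libraries alone, the log2 fold change was 2.24 and the adjusted p 0.0514.

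For all 7 risen genes the 4 depleted libraries lay above the 6 controls, which held for 16.5% of all genes tested. By edgeR's quasi-likelihood test, the median log2 fold change over the 10 genes was 3.19 and that over all genes -0.03. Per kilobase of gene length, the order of mean levels in controls was Irf8 (1.03 CPM per kilobase), Zbtb46 (0.650), Batf3 (0.404), Clec9a (0.399), Itgax (0.288), Ccr7 (0.161), Siglech (0.143), Cd209a (0.138), Xcr1 (0.110) and Flt3 (0.0614). In controls the mean ± SD ranges of all neighbours in that order overlapped. In depleted livers the order was Irf8 (12.0 CPM per kilobase), Clec9a (7.06), Itgax (3.92), Batf3 (3.86), Xcr1 (1.95), Ccr7 (1.38), Zbtb46 (0.843), Flt3 (0.495), Cd209a (0.0660) and Siglech (0.0255). There the mean ± SD ranges of neighbours overlapped as well, except between Flt3 (SD 0.321) and Cd209a (SD 0.0716).

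**Figure D2:**
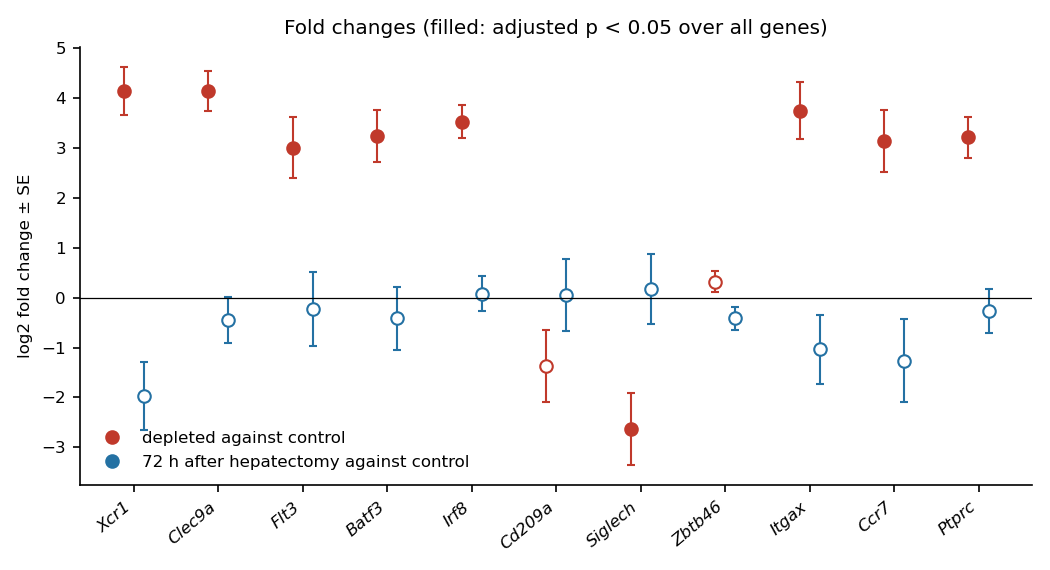
Log2 fold change with its SE for the 10 genes and for the leukocyte gene Ptprc, in depleted livers (red) and 72 h after hepatectomy (blue), each against control; filled points passed an adjusted p of 0.05. The 7 risen genes lie between 3.0 and 4.14 beside Ptprc at 3.21, and no hepatectomy point is filled.

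The 72 h hepatectomised livers were compared with the same controls to see how these genes stood in a regrowing liver with its stellate cells. By edgeR's quasi-likelihood test 0 of the 10 genes were called, against 6.06% of all genes called higher and 2.36% called lower. At an unadjusted p under 0.05 there was 1 gene, Xcr1. Its log2 difference was -1.96 ± 0.68 (adjusted p = 0.0973), from 13 counts summed over the 3 hepatectomised libraries. DESeq2 called Xcr1 lower (adjusted p = 0.0301), as did edgeR without control replicate 6 (adjusted p = 0.0441), while limma-voom called 0 genes. Differences of the other genes ran from -1.27 ± 0.83 for Ccr7 and -1.04 ± 0.69 for Itgax to 0.17 ± 0.70 for Siglech. Irf8, at 0.08 ± 0.36, had the smallest SE among the 7 genes that rose in depleted livers. The hepatectomised and control ranges overlapped for each of the 10 genes.

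Against hepatectomised livers, depleted livers were called higher for the same 7 genes and lower for Siglech by edgeR's quasi-likelihood test, where 13.3% of all genes were called higher and 10.1% lower. The log2 fold changes were 6.10 ± 0.74 for Xcr1, 4.78 ± 0.81 for Itgax, 4.58 ± 0.54 for Clec9a, 4.40 ± 0.89 for Ccr7, 3.66 ± 0.72 for Batf3, 3.44 ± 0.43 for Irf8 and 3.22 ± 0.81 for Flt3. Flt3 did not pass without depleted replicate 3 (log2 fold change 2.13, adjusted p = 0.120). Siglech was at -2.79 ± 0.87 (adjusted p = 0.0348), a call lost on leaving out any of 7 libraries (control replicates 1 and 3, depleted replicates 1, 2 and 3, and hepatectomised replicates 1 and 2) and when the fit held these 2 groups alone (adjusted p = 0.144). Zbtb46 was at 0.74 ± 0.25 (adjusted p = 0.0525) and passed under 5 other settings, among them DESeq2 at an adjusted p of 0.0229. It also passed in 3 of the 13 fits that left out 1 library. For 8 of the 10 genes, Zbtb46 included, the depleted libraries lay above all hepatectomised ones, which held for 18.1% of all genes tested. This comparison shares libraries with both comparisons against control.

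Levels relative to Ptprc were then compared, to ask how the 10 genes stood against a gene that all leukocytes carry. Ptprc, which encodes CD45, was at 11.1 ± 4.70 CPM in controls (SD, n = 6), 104 ± 22.8 CPM in depleted livers (n = 4) and 8.79 ± 4.41 CPM after hepatectomy (n = 3). It rose by 3.21 ± 0.40 in depleted livers (adjusted p = 0.000103, edgeR). For each library the log2 ratio of a gene to Ptprc was taken, with 0.1 CPM added to both, and the group means were compared by an exact two-sided permutation test over libraries, adjusted over all genes. None of the 10 genes was called higher relative to Ptprc in depleted livers, where 0.651% of all genes were, and 0 had a raw p under 0.05 in that direction.

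For the 7 risen genes the change relative to Ptprc was small beside the rise itself. It was 0.54 for Xcr1 (exact permutation p = 0.114, n = 4 and 6), 0.49 for Clec9a (exact p = 0.381) and 0.21 for Irf8 (exact p = 0.200). Itgax differed by 0.04 (exact p = 0.952). Batf3, Ccr7 and Flt3 were at -0.42, -0.49 and -0.62 (exact p = 0.333, 0.267 and 0.0952). A p above the threshold does not show that these genes moved as Ptprc did. The SD of the log2 ratio within a group ran up to 1.0, for Itgax in depleted livers. With the mean of 10 pan-leukocyte genes in place of Ptprc, Xcr1 at 0.96 and Irf8 at 0.63 were called higher. With 0.5 CPM added instead of 0.1, Flt3 at -1.39 and Ccr7 at -1.36 were called lower, and leaving out depleted replicate 3 gave such a call for Flt3 (-0.87).

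The genes that did not rise fell behind Ptprc. Zbtb46 was lower by 3.0 relative to Ptprc, Cd209a by 4.07 and Siglech by 4.91 on the log2 scale, with no overlap between the groups. Each had an exact permutation p of 0.00952, the smallest that 4 against 6 libraries allow, and an adjusted p of 0.0104. Since Ptprc itself rose, 93.6% of all genes were called lower relative to it, with a median of -3.40, so this call is shared with most of the liver's genes. After hepatectomy Xcr1 was at -1.0 relative to Ptprc (exact p = 0.0476, adjusted p = 0.967). The smallest exact p that 3 against 6 libraries allow is 0.0238, which put the threshold after adjustment over all genes all but out of reach. The background of 0% in both directions and the 0 calls among the 10 genes therefore carry no information on this ratio.

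**Figure D3:**
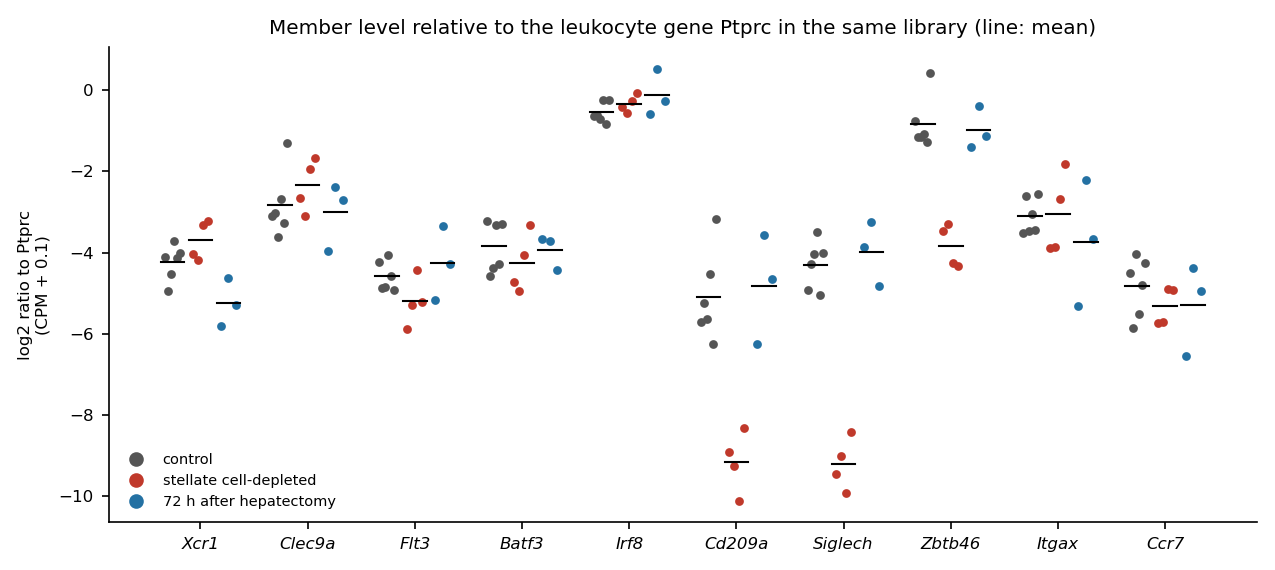
Log2 ratio of each gene to Ptprc in the same library, with 0.1 CPM added to both, by group (lines: group means). For 7 genes the depleted and control livers overlap, and for Cd209a, Siglech and Zbtb46 the 4 depleted libraries lie below all controls.

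The 7 risen genes were also compared for how they varied among libraries of the same group. After group and sex means were removed, Pearson's r of log2 CPM over the 13 libraries lay between 0.39 and 0.91 for the 21 pairs among them, with a median of 0.64. Between these 7 and Cd209a, Siglech or Zbtb46, r lay between -0.25 and 0.69 with a median of 0.19. Siglech, which fell in depleted livers, was positively correlated with each of the 7 after this removal, from 0.07 with Ccr7 to 0.64 with Batf3 and 0.69 with Irf8. These values describe libraries that share depth and tissue composition. Depleted replicate 3 held the highest level for 4 of the 7 genes and replicate 4 for the other 3, while replicate 2 held the lowest for 6. Control replicate 6 was the lowest control for 6 of the 7, and in hepatectomised livers the female replicate 3 was the highest for 6.

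**Figure D4:**
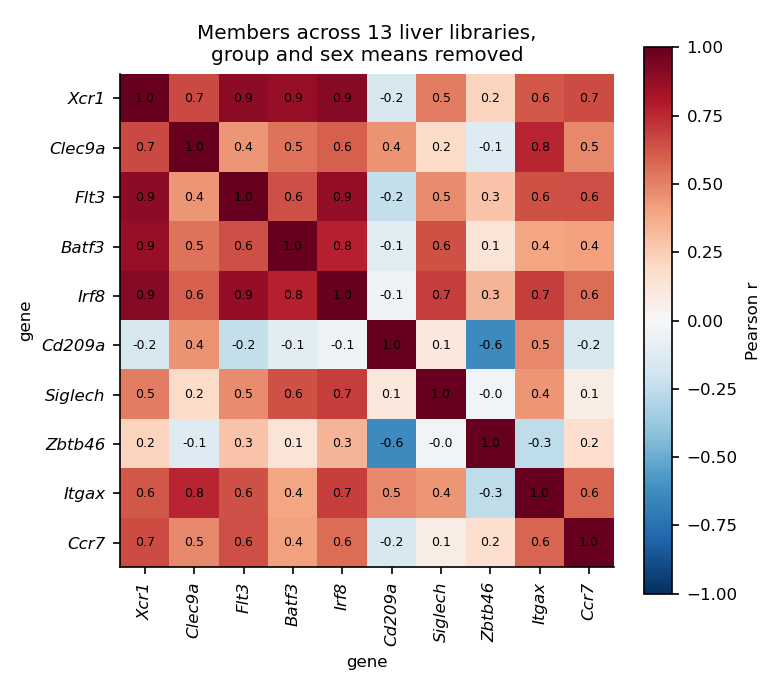
Pearson's r between the 10 genes over 13 liver libraries, on log2 CPM after removal of group and sex means. Values among the 7 risen genes, and between these and Siglech, are positive (red), and Cd209a and Zbtb46 stand at -0.63 to each other.

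Xcr1 and Clec9a, both of type 1 cells, were also set against each other as the ratio of their counts. It was 0.380, 0.469, 0.377 and 0.341 in depleted replicates 1 to 4. In controls it ran from 0.0789, in replicate 6 with 3 Xcr1 counts, to 0.522. In hepatectomised replicates it was 0.174, 0.0870 and 0.113, each below the lowest depleted library, from 2 to 7 Xcr1 counts.

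Genes with the most alike pattern over the 13 libraries, group differences included, were taken from all other genes tested. For Xcr1 these were Prdm1, a transcription factor of differentiating lymphocytes and dendritic cells (r = 0.99), and the antigen presentation genes H2-Eb1 and Cd74 (both r = 0.98). For Ccr7 they were the interferon-inducible Ifi214, the lymphocyte factor Ikzf3 (both r = 0.97) and H2-M3 (r = 0.96). Siglech was most alike to Lrat (r = 0.91), the stellate cell enzyme, followed by Lipa (r = 0.91) and Scn3a (r = 0.90). Lrat was at 37.0 ± 21.7 CPM in controls and 0.752 ± 1.19 CPM in depleted livers. Cd209a was most alike to Slc16a11 and Kcne4 (both r = 0.86) and Kdsr (r = 0.85).

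Other genes of the dendritic cell subsets were counted from lists of 10 to 14 genes, to be read against the 18.9% of all genes called higher in depleted livers. Of the 11 tested genes of the type 1 list, 10 rose, with a median log2 fold change of 2.71. They included Tlr11, the toll-like receptor for a parasite profilin (5.18 ± 0.42, from 3 to 18 counts in each control), and the integrin Itgae (3.71 ± 0.49). Of the 11 tested type 2 genes 9 rose, with a median of 2.38, among them Ltb (3.85 ± 0.45) and the inhibitory receptor Sirpa (2.91 ± 0.35), while Notch2 and Rbpj stood at 0.09 ± 0.13 and 0.26 ± 0.16. Of the 10 tested plasmacytoid genes 8 rose, with a median of 2.27. Klk1, Cox6a2, Cd300c and Smim5 of this list were below the filter on low counts. In that order they held 19, 12, 17 and 27 counts over the 6 controls and 2, 4, 20 and 45 over the 4 depleted livers. The nucleic acid sensor Tlr9 rose by 3.65 ± 0.41 and the transcription factor Spib by 2.34 ± 0.27, whereas Siglech fell. Ccr9 held 0 to 9 counts in each control and 38 to 121 in each depleted library. Pacsin1 held 1 to 13 and 55 to 108. Both entered the test through the depleted livers and were called higher, and their folds are not given. The lineage factor Tcf4 at 0.35 ± 0.17 and the surface protein Bst2 at 0.52 ± 0.29 did not pass the test. Several of these genes are also used by lymphocytes and macrophages.

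Maturation and antigen presentation genes rose as well. Of 14 mature or migratory dendritic cell genes, 13 rose, with a median of 2.88. They included the checkpoint ligand Cd274 (4.83 ± 0.39). Apol7c held 2 to 18 counts in each control and 185 to 460 in each depleted library. For the chemokine Ccl17 these counts were 0 to 1 and 4 to 48, and for the interleukin-12 subunit Il12b 0 to 8 and 18 to 107. Apol7c, Ccl17 and Il12b entered the test through the depleted livers and were called higher. A fitted fold over so few control counts is not given. All 10 MHC class II genes rose, with a median of 4.76, led by H2-Eb1 (5.33 ± 0.55), H2-Aa (5.13 ± 0.44) and H2-Ab1 (5.01 ± 0.43). The invariant chain Cd74 rose from 71.2 ± 36.3 to 2191 ± 1043 CPM (SD).

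Of 9 tested chemokine ligands and receptors 5 rose in depleted livers, among them Ccl5 (5.27 ± 0.41). Ccr1 was called higher from 2 to 22 counts in each control, against 302 to 651 in each depleted library. It entered the test through the depleted and hepatectomised livers, and its fold is not given. Xcl1, the ligand of XCR1 made by NK and T cells, was at 0.207 ± 0.0833 CPM in controls and 1.04 ± 0.881 CPM in depleted livers, a rise of 2.24 ± 0.52. The CCR7 ligand Ccl21a stood at 0.89 ± 0.58 (adjusted p = 0.263, edgeR), and Ccl19 and the growth factor Csf2 were below the filter on low counts. Of 8 tested growth factors and receptors, 6 rose, among them the receptor chains Csf2rb2 (4.27 ± 0.43), Csf1r (2.95 ± 0.49) and Csf2ra (2.95 ± 0.31). Il34, a ligand of the CSF1 receptor, fell by 2.89 on the log2 scale. Flt3l was not analysed here. Of 12 transcription factors of dendritic cell development 6 rose, such as Batf (3.89 ± 0.44), Ikzf1 (2.94 ± 0.36) and Spi1, which encodes PU.1 (2.56 ± 0.46). Cebpa, also a hepatocyte factor, was the 1 that fell, and Id2 stood at -0.09 ± 0.18.

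Markers of other leukocytes moved in the same livers, and their part in the dendritic cell results was not tested. All 10 pan-leukocyte and 10 B cell genes rose in depleted livers, with medians of 2.95 and 2.41. All 10 T cell and 10 NK cell genes were called higher as well. Several of these entered the test through the depleted livers, such as Cd8b1 with 2 to 8, Cd5 with 0 to 7, Eomes with 0 to 3 and Klrb1b with 1 to 8 counts in each control. No median fold is given for the T cell and NK cell lists. The summed NK cell level was between 50.3 and 133 CPM in depleted livers against 1.44 to 4.96 CPM in controls. Of 14 monocyte and macrophage genes 11 rose (median 2.91) and of 10 Kupffer cell genes 6 (median 1.74). The 11 tested neutrophil genes were all called higher, but several had next to no counts in controls, such as Ly6g with 0 in each and Camp with 1 over all 6, and entered the test through the other livers. No median fold is given for them, and their summed level was between 230.2 and 401 CPM in depleted livers against 0.990 to 5.31 CPM in controls. The summed T cell level was between 48.1 and 118 CPM in depleted livers against 3.26 to 5.97 CPM in controls, and that of the monocyte list between 682 and 1161 against 137 to 326 CPM. Of these lists, the neutrophil list had 1 gene at 0 in all controls, Ly6g, and none had a gene at 0 in all depleted libraries.

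**Figure D5:**
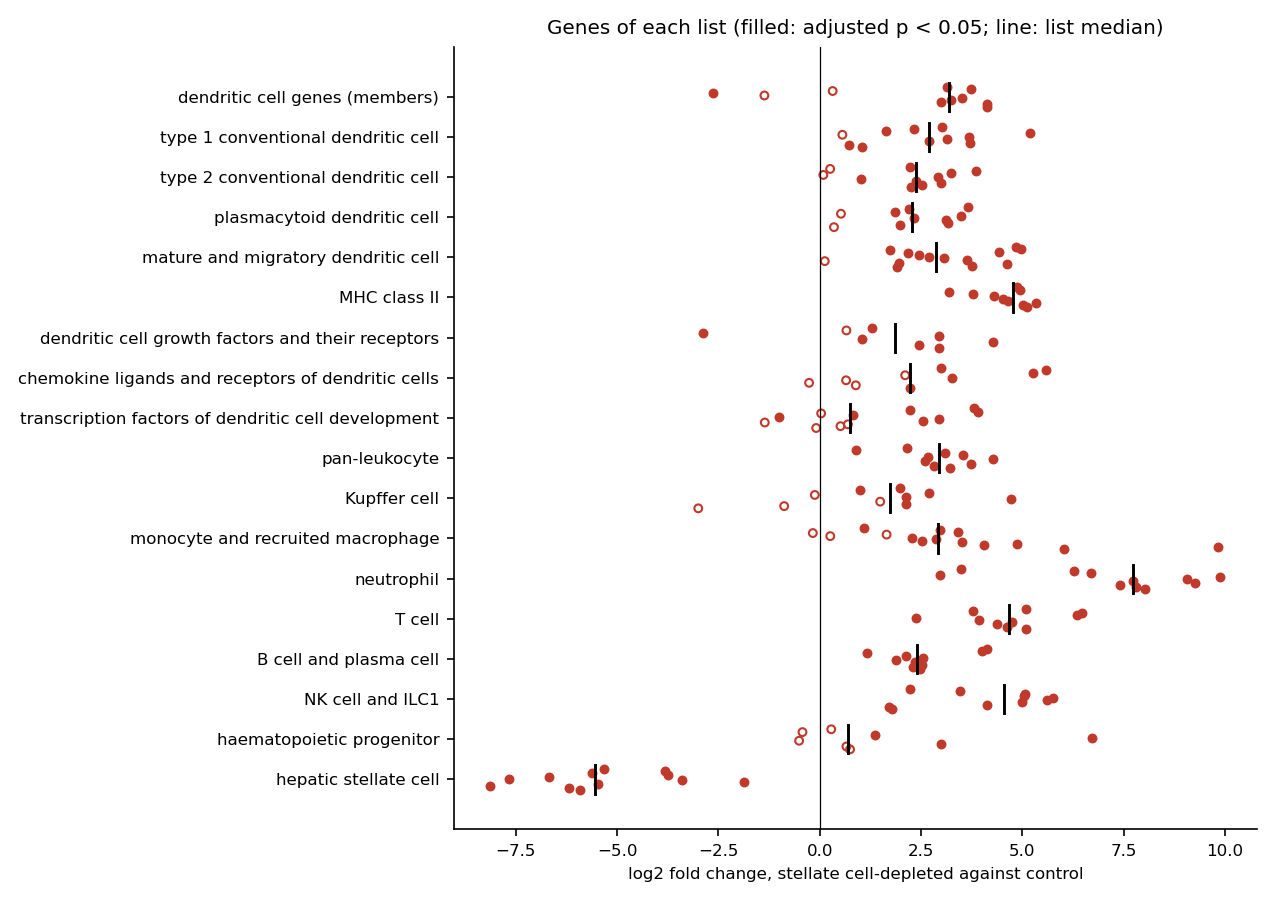
Log2 fold change in depleted against control livers for each gene of the 10 and of 17 further lists (one point a gene, filled where the adjusted p was under 0.05, line at the list's median). MHC class II genes have a median of 4.76 and stellate cell genes of -5.55, and the neutrophil points include genes with next to no counts in controls.

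At 72 h after hepatectomy the lists are read against the 6.06% of all genes called higher and the 2.36% called lower. Of the type 1 and type 2 genes 0 were called by edgeR, DESeq2 or limma-voom, with medians of -0.21 and -0.32 and 1 gene of each list at an unadjusted p under 0.05. Of the MHC class II genes 0 were called by edgeR and limma-voom and 5 by DESeq2, 7 had an unadjusted p under 0.05 by edgeR, and the median was -1.32. Of the plasmacytoid list Ly6d rose (2.41 ± 0.63) and Spib fell by 1.34 on the log2 scale. Of the mature list Apol7c was called lower near the limit of detection, with 2 to 18 counts in each control and 0 to 1 in each hepatectomised library, and it entered the test through the depleted livers, with 185 to 460 counts. By limma-voom 0 genes of the plasmacytoid and 0 of the mature list were called, and by DESeq2 2 and 1. Of the neutrophil genes 8 of 11 were called higher, Ly6g and Camp again from next to no control counts, and S100a8 rose from 0.239 to 6.03 CPM. Of 14 monocyte genes 3 were called higher, and of 10 B cell genes 3 fell, among them Pax5 by 2.49. The monocyte gene Chil3 was called from 1 to 12 counts in each control, against 46 to 84 in each hepatectomised library. It entered the test through the depleted and hepatectomised livers. Limma-voom called 6 neutrophil, 3 monocyte and 2 B cell genes. The chemokine receptor Ccr1 was called higher from 2 to 22 counts in each control, against 31 to 80 in each hepatectomised library. Among the transcription factors Nfil3 (1.96 ± 0.41) and Stat3 (1.17 ± 0.18) rose, and Cebpa fell from 358 to 127 CPM. Gfi1 held 1 to 6 counts in each control and 0 in each of the 3 hepatectomised libraries, and was called lower near the limit of detection, having entered the test through the depleted livers with 31 to 78 counts.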

How the data were processed

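Whole-liver mRNA was measured in 13 libraries, prepared with a stranded mRNA kit from 500 ng of total RNA and sequenced over 2 lanes, per the labels' protocols. The authors deposited raw read counts per gene with gene lengths. Per the submitters' processing notes, the tools named are STAR 2.7.1a, SAMtools 1.15.1 and featureCounts 1.6.4, with the mm10 build. The strand and multi-mapping settings of the counting are not given in the sources used here. Symbols came from GENCODE release M21 (GRCm38): 21741 of 22048 gene IDs had one, and 99.94% of those overlapped the same gene there. No column of another series' samples was present.

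Counts were tested in R 4.3.3 with the quasi-likelihood test of edgeR 4.0.16 (filterByExpr, TMM scaling, robust fit). Group and sex were terms of a model of all 13 libraries, and p-values were adjusted by Benjamini-Hochberg over 13831 genes at a threshold of 0.05, two-sided. The script was tested on simulated data. The common biological coefficient of variation was 31.39%. CPM values are TMM-scaled, with a prior count of 2 before log2. Ratios to Ptprc used 0.1 CPM added to both values and were adjusted over all genes, not over the 10 genes as first planned. Alternatives were the sex term, the libraries in the fit, scaling, DESeq2 1.42.0, limma-voom (limma 3.58.1), the low-count filter, a replicate block, and the pseudocount and reference of the ratio. Leaving out control replicate 6 with depleted replicate 4 was added after the data were seen.

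Within each group every pair of libraries differed by more than sampling noise (chi-square over genes, lowest median 4.60). The floor of 3 counts covers counting error only, since reads carried no molecular identifiers, while SEs and p-values of the fits cover the spread between libraries. The 10 genes and the lists were chosen with earlier results of these data known. Genes named beside the 10 were at most 4 per list and comparison, those called with the largest change, plus Ptprc, Lrat, Flt3l, Xcl1, Ccl19, Ccl21a and Csf2, and 3 alike genes each for Xcr1, Cd209a, Siglech and Ccr7. Clec1b, Spib and Cebpa in depleted livers, and list genes named because they did not pass the test, were chosen after their values were seen. RefSeq windows covered 27025 genes.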

Additional observations from a re-analysis of the deposited data

Results flagged for a closer look

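In 20 groups of 4 or more libraries (the 10 genes in control and in depleted livers), 1 library lay far from the rest of its group 3 times, measured as the gap to its nearest neighbour over the whole range of the group in log2 CPM. About 1 in 20 such groups is marked by chance. Flt3 in control replicate 6, at 0 counts, had a gap of 0.816 of the range. Irf8 in the same library, at 82 counts, had a gap of 0.678. Siglech in depleted replicate 4, at 10 counts against 2 in each other depleted library, had a gap of 0.905.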

How the results depend on the processing

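Low counts limited Cd209a, Siglech and, after hepatectomy, Xcr1 and Ccr7. In depleted against control livers, the 7 genes called higher stayed called in each of the 10 other fits and the 13 fits that left out 1 library, except Ccr7 in female libraries alone. Genes called lower ran from 0 to 2 on leaving out 1 library, and all genes called from 2960 (without depleted replicate 3) to 4928, with 2726 in female libraries. After hepatectomy, members called lower ran from 0 to 1 on leaving out 1 library. The 1 gene, Xcr1, was also called by DESeq2 and without the 2 libraries that stood apart. All genes called there ran from 483 (without hepatectomised replicate 2) to 1458 on leaving out 1 library, were 692 without control replicate 1 and 742 without control replicate 2, and were 90 in female libraries, 2192 with library size alone and 1939 by DESeq2. Genes of the further lists ran from 14 to 24, with 3 in female libraries. Between depleted and hepatectomised livers, members called lower ran from 0 to 1, and were 0 with the 2 groups alone, with library size alone and in female libraries, where 3 were called higher. All genes called ran from 1709 to 3850, with 2105 in the 2 groups alone and 1263 in female libraries. Relative to Ptprc in depleted livers, 5 members were called lower with 0.5 CPM, and 2 higher with the mean of 10 pan-leukocyte genes. The causes were not tested.

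Female libraries included 1 hepatectomised liver, so those fits assume that it varies like the other groups. Signs turned among differences that did not pass the test. After hepatectomy these were Siglech without the sex term (-0.16), in female libraries (-1.28), with library size alone (-0.049), by limma-voom (-0.052) and without the 2 libraries that stood apart (-0.26). They were Irf8 in female libraries (-0.013), with library size alone (-0.15) and without the 2 libraries (-0.15), Cd209a without the sex term (-0.01) and with library size alone (-0.17), Clec9a in female libraries (0.15) and Flt3 by limma-voom (0.15). Leaving out 1 library gave ranges of -0.29 to 0.39 for Cd209a, -0.57 to 0.86 for Siglech and -0.14 to 0.22 for Irf8. Relative to Ptprc, 0.5 CPM gave Xcr1 -0.18 and Itgax -0.29 in depleted livers and Batf3 0.075 after hepatectomy. Leaving out 1 library gave -0.37 to 0.32 for Itgax in depleted livers. After hepatectomy it gave -0.50 to 0.30 for Clec9a, -0.14 to 0.78 for Flt3, -0.23 to 0.16 for Batf3, -0.37 to 0.97 for Cd209a, -0.054 to 0.74 for Siglech, -0.43 to 0.11 for Zbtb46, -1.38 to 0.17 for Itgax and -0.92 to 0.16 for Ccr7.

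Replicate numbers did not pair the libraries. With group and sex removed, same-numbered depleted and control libraries correlated at 0.07, -0.10, 0.42 and 0.08, and hepatectomised and control libraries at 0.08, -0.19 and -0.05. With group alone removed the latter were 0.23, 0.11 and 0.52, but these pairs share their sex. With the replicate block, 7 members were called higher and 1 lower in depleted against control livers. After hepatectomy the block gave 1 member lower (Xcr1), 632 genes in all, 15 genes of the further lists, Irf8 at -0.060 and Siglech at -0.084. Against hepatectomised livers it called 8 members higher.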
